A study of Mus musculus with 8 samples.

Results

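Interferon response genes are genes whose transcription rises in most cells exposed to interferon, and 39 of them were described here in cultured mouse optic nerves kept with lithium or in control medium. The list was one of gene symbols, and a gene was measured where a probe set of the array was annotated to that symbol alone, with the probe set of the highest mean log2 signal over the 8 arrays standing for the gene. This gave 37 of the 39 genes, out of 18193 genes measured by the same rule. The only probe set of Isg15 is also annotated to a second symbol and was left out, and Ifi44 was not analysed here.

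The samples were 4 arrays of lithium nerves and 4 arrays of control nerves (Affymetrix Mouse Genome 430 2.0), and the question was how lithium alters gene expression in this white matter tract. By the labels, all nerves came from C57BL/6 mice aged 35 to 45 days and spent 3 days in organotypic medium, which held 20 mM lithium chloride for the lithium group and saline for the control group, with 6 nerves behind each sample. The methods name another strain (C57/BL10) and other nerve numbers, and describe nerves cultured with the retina attached. The design text speaks of 6 mice a group, which would not have enough nerves for 4 samples of 6 each. Neither source says whether replicates were separate animals or cultures. The p-values therefore reflect sample-to-sample spread alone, some or all of it possibly technical, and precision is limited by having 4 arrays a group. Each value is a MAS5 signal on a linear scale, from RNA of the whole tissue, in which fewer cells of a type and less RNA per cell cannot be told apart. Signals of different probe sets were not compared with each other.

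The array medians ran from 12.3 to 16.5 in lithium nerves and from 14.8 to 17.5 in control nerves. Transcripts that define the tissue were present: Mbp, a myelin protein gene, averaged 2504 in lithium and 2345 in control nerves, and Gfap, an astrocyte filament gene, 1487 in lithium and 1593 in control nerves. The control arrays were not alike for the interferon response genes. Control array 1 was the highest of its group for 33 of the 37 genes and control array 4 the lowest for 24. These counts were not made over all genes, so they do not show whether other genes differ.

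Type I interferons bind a receptor on the cell surface whose associated JAK kinases phosphorylate STAT proteins. STAT2 and IRF9 are parts of a complex that enters the nucleus and binds the interferon-stimulated response element in the promoters of its target genes, whereas type II interferon acts chiefly through a different element. The targets include sensors of viral RNA, effectors that block viral entry, translation or replication, the STAT and IRF factors themselves, and the machinery that loads peptides onto class I molecules. In the central nervous system microglia, astrocytes and oligodendrocytes can all respond to interferon.

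Of the 5 genes that passed the test, Oas1b and Parp14 had no promoter window listed. The promoter windows of the other 3 are shown. They are RefSeq sequences of the GRCm38.p6 build, read 5′ to 3′ on the strand of the gene, from 250 bases before the annotated start to 50 bases after it. Capitals mark the core of the interferon-stimulated response element, searched on both strands as GAAA, any 2 bases, and GAAA again. The Ifih1 window lies at chr2:62646206-62646505 on the minus strand, the Stat2 window at chr10:128270248-128270547 on the plus strand, and the first of 3 Adar windows at chr3:89714772-89715071 on the plus strand.
Ifih1: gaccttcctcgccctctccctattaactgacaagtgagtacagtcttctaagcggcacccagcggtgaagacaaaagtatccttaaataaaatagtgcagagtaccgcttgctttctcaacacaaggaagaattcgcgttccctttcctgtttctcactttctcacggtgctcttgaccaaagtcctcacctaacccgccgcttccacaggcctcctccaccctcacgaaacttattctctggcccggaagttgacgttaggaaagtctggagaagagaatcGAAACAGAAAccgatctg
Stat2: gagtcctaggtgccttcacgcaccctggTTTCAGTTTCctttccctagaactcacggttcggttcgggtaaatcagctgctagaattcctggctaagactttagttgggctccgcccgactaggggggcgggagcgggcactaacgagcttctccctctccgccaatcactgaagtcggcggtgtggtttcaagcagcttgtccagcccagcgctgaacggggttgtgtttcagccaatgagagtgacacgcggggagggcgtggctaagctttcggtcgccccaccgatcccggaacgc
Adar: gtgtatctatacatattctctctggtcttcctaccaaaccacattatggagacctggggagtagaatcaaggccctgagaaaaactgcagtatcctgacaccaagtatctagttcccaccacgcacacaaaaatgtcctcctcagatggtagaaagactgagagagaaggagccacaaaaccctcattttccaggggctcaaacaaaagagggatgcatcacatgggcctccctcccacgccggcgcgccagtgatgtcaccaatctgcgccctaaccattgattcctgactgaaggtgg
The Ifih1 match GAAACAGAAA begins 33 bases after the start. The Stat2 match TTTCAGTTTC, on the other strand, begins 222 bases before the start. Neither this core nor TTCNNNGAA, the palindromic core of the element bound by STAT dimers, was found in the Adar window shown. TTCAAGGAA, a match to the second, begins 23 bases after the start in the third Adar window, at chr3:89730468-89730767.

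A window was listed for 29 of the 37 measured genes. The response element core occurred in 11 of the 29 (37.9%), against 3.99% of 27025 genes with a window and 3.44% of all 32851 windows. Of the role groups described below, 7 of 11 antiviral effectors with a window held it, 2 of 4 sensors, 1 of 4 STAT and IRF factors, none of 3 antigen processing genes and 1 of 7 enzymes and regulators. The same letters as in the Stat2 window, TTTCAGTTTC, stood 85 bases before the start of Ifit1, 122 before that of Ifit3 and 45 before that of Gbp3. TTCNNNGAA occurred in 9 of the 29 genes (31%), against 9.55% of all genes with a window. The genes with the response element core had a median log2 difference, lithium minus control, of 0.57 and those without it 0.56. A match is a description of letters and not of binding, and no match says only that these letters are not in the window.

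Most interferon response genes had a higher mean in lithium than in control nerves, by less than 2-fold for all but 2 of them, Oas1b and Stat2. The log2 difference was above 0 for 35 of the 37 genes, against 47.3% of all genes, with a median of 0.58 against -0.00 over all genes. By limma with Benjamini-Hochberg adjustment over all probe sets, 5 of the 37 rose in lithium at an adjusted p under 0.05, against 1.18% of all genes, and none fell, against 2.05%. At an unadjusted p under 0.05, 25 genes were higher, against 9.38% of all genes. Every lithium array lay above every control array for 17 of the 37, against 6.47%, and below every control array for none, against 8.92%. One gene, Oas1b, also met the fold change of 2 and the level of 200 that the methods name, against 0.0879% of all genes, and no gene met these limits in the other direction, against 0.242%.

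The 5 calls depended on how the arrays were handled. With the replicate number as a block, none of the 37 genes passed, against 0.0495% of all genes, and the adjusted p of the 5 genes lay between 0.055 and 0.127. When any one of the 8 arrays was left out, none or 1 of the 37 passed, against 0.187% to 0.605% of all genes, so that calls were lost among all genes too. The differences themselves moved less, with a median over the 37 genes of 0.46 to 0.68 when 1 array was left out.

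**Figure D1:**
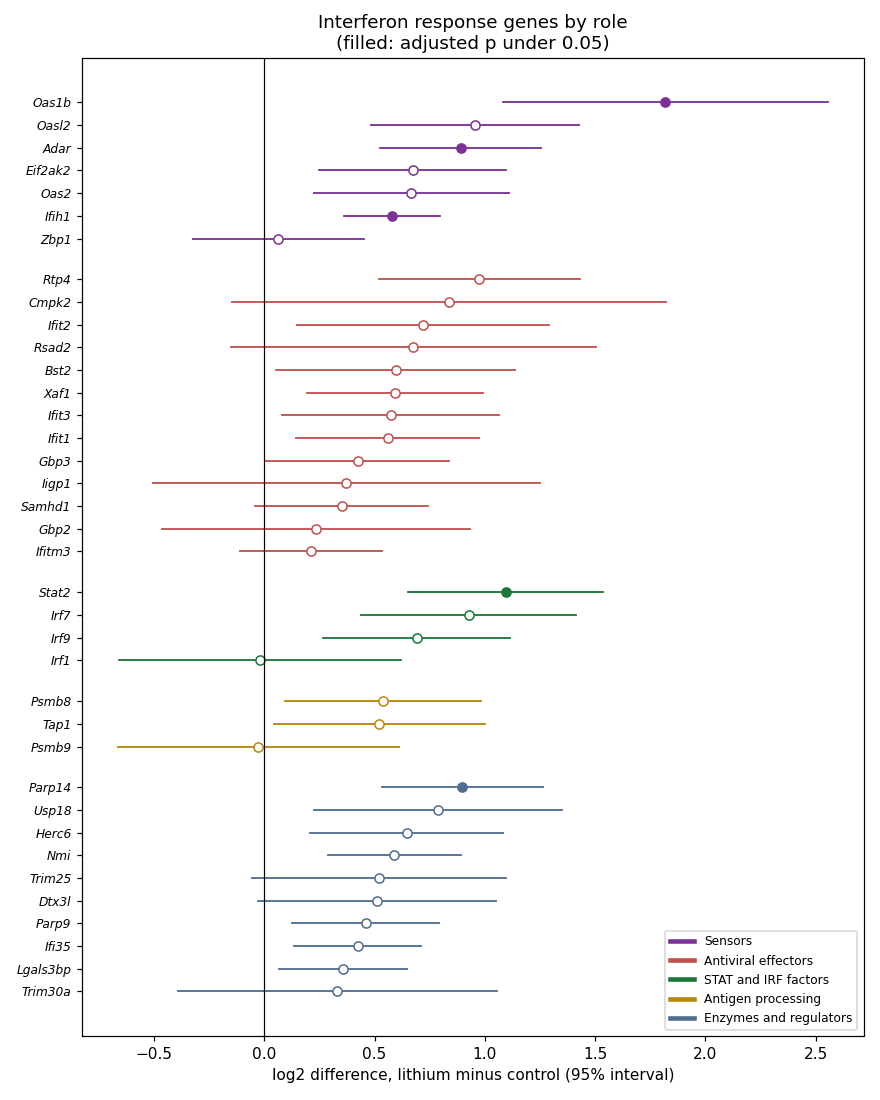
Log2 difference, lithium minus control, of the 37 measured interferon response genes, sorted within their role, with 95% intervals from limma; filled points passed an adjusted p of 0.05. Of the 37 points, 35 lie to the right of 0, and the 5 filled ones are Oas1b, Adar, Ifih1, Stat2 and Parp14.

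The group called sensors here, of sensors and enzymes that bind double-stranded RNA or Z-form nucleic acid, held 3 of the 5 genes that rose. These were 3 of its 7 genes, against 1.18% of all genes. All 7 had a difference above 0 (median 0.67), against 47.3% of all genes. For 6 of them all lithium arrays lay above all control arrays, against 6.47% of all genes. Ifih1, which encodes the cytoplasmic RNA helicase MDA5, had signals of 226, 220.1, 252 and 265 on lithium arrays 1 to 4, against 173, 145, 171 and 156 on control arrays 1 to 4. The groups did not overlap, and the arrays within each were close together. Ifih1 rose 1.49-fold (log2 difference 0.58 ± 0.09 SE, adjusted p = 0.0349 by limma and 0.0800 with the replicate block).

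Oas1b, a member of the oligoadenylate synthetase family, had signals of 295, 193, 195 and 161 on lithium arrays, against 94.7, 65.1, 39.8 and 47.1 on control arrays. The first array was the highest in both groups, and the lowest lithium array still lay above it in control nerves. Oas1b rose 3.53-fold (95% interval of the log2 difference 1.08 to 2.56, adjusted p = 0.0392 by limma and 0.055 with the block). Adar, which edits adenosine to inosine in double-stranded RNA, had 219, 212, 225 and 269 on lithium arrays, against 109, 102, 149.8 and 143 on control arrays. Here control arrays 3 and 4 were the higher ones of their group, the reverse of most of the other genes, and the groups did not overlap. Adar rose 1.85-fold (log2 difference 0.89 ± 0.15 SE, adjusted p = 0.0404 by limma and 0.067 with the block), and its other 2 probe sets had log2 differences of 0.63 and 1.48, neither past the threshold.

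The other 4 sensors did not pass. Oasl2, an oligoadenylate synthetase-like protein gene, had a log2 difference of 0.95 (adjusted p = 0.0637 by limma). Eif2ak2, the kinase PKR that halts translation on binding viral RNA, had 0.67, and Oas2 had 0.67 at low signals, with a mean of 22.1 ± 3.03 in lithium and 14.1 ± 2.93 in control nerves (SD, n = 4 each). Zbp1, which binds Z-form nucleic acid, had 0.06 (95% interval -0.33 to 0.45), and its control array 1 stood above all other arrays.

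**Figure D2:**
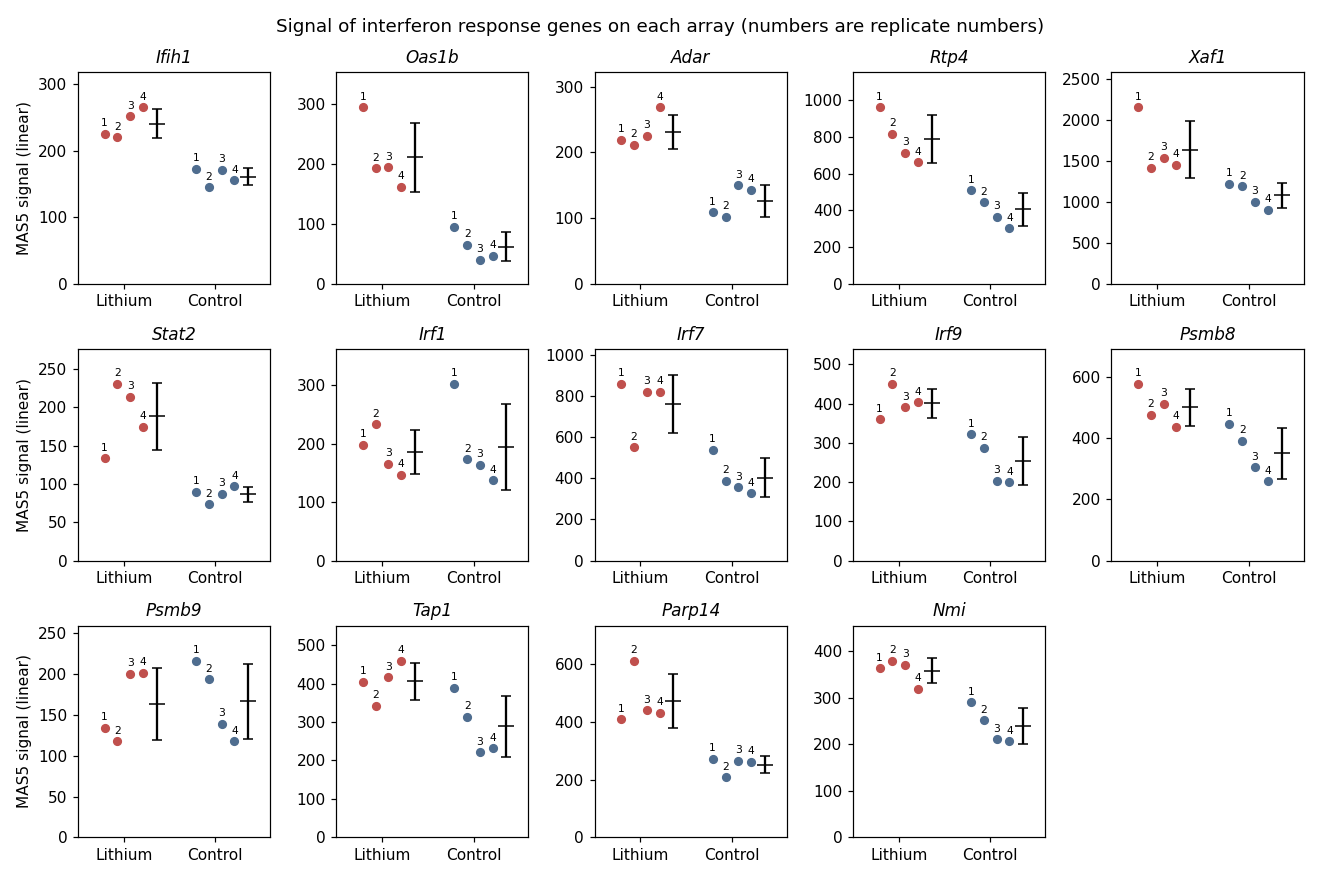
MAS5 signal (linear axis from 0) of 14 interferon response genes on each array, lithium left and control right; numbers are replicate numbers, and the bars are the group mean with its SD. Ifih1, Oas1b, Adar, Rtp4, Xaf1, Stat2, Irf7, Irf9, Parp14 and Nmi have no overlap between the groups, whereas Irf1, Psmb8, Psmb9 and Tap1 do.

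None of the 13 measured antiviral effectors passed the test, which is near the share of all genes that rose, 1.18%. All 13 had a difference above 0 (range 0.21 to 0.97, median 0.57), against 47.3% of all genes. Every lithium array lay above every control array for 3 of the 13, against 6.47% of all genes, and the groups overlapped for 10. Rtp4, a chaperone of membrane receptors that is induced by interferon, had 963, 818, 715 and 662 on lithium arrays, against 508, 443, 366 and 303 on control arrays. The groups did not overlap, with a log2 difference of 0.97 ± 0.19 SE (adjusted p = 0.0562 by limma and 0.0531 with the block). The second probe set of Rtp4, of lower signal, had a log2 difference of 1.33 and passed (adjusted p = 0.0254 by limma). Xaf1, which binds the apoptosis inhibitor XIAP, had 2155, 1412, 1535 and 1451 on lithium arrays, against 1222, 1189, 1000.5 and 901 on control arrays. The arrays did not overlap, and lithium array 1 was well above the rest. The log2 difference was 0.59 (adjusted p = 0.128 by limma).

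Among the remaining effectors the log2 difference was 0.84 for Cmpk2, a mitochondrial nucleotide kinase, 0.68 for Rsad2, the radical SAM enzyme viperin, and 0.60 for Bst2, which tethers budding virions. The RNA-binding Ifit family had 0.56 for Ifit1, 0.72 for Ifit2 and 0.57 for Ifit3. The interferon-inducible GTPases had 0.42 for Gbp3, 0.37 for Iigp1 and 0.23 for Gbp2. Samhd1, which depletes deoxynucleotides, had 0.35, and Ifitm3, which blocks fusion of viruses in endosomes, had 0.21 (95% interval -0.11 to 0.53). For Cmpk2, Rsad2, Iigp1, Gbp2, Samhd1 and Ifitm3 the 95% interval of the difference included 0.

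Of the STAT and IRF factors, Stat2 rose, Irf7 and Irf9 were higher without passing, and Irf1 had a difference near 0 with a wide interval. Stat2, the STAT particular to type I and type III signalling, had 134, 231, 214 and 175 on lithium arrays, against 89.4, 73.3, 87.0 and 97.0 on control arrays. The control arrays were close together and all lay below lithium array 1, the lowest of its group. Stat2 rose 2.14-fold (log2 difference 1.09 ± 0.19 SE, adjusted p = 0.0390 by limma and 0.108 with the block).

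Irf7, the factor that amplifies transcription of interferon genes, had 859.7, 552, 820.5 and 820.3 on lithium arrays, against 539, 389, 356 and 328 on control arrays. The groups did not overlap, but lithium array 2 came close to control array 1. The log2 difference was 0.93 (adjusted p = 0.0755 by limma). Irf9, the DNA-binding partner of STAT2, had 359.9, 449.8, 391 and 403 on lithium arrays, against 322, 287, 204 and 199.8 on control arrays. These too did not overlap, with a log2 difference of 0.69 (adjusted p = 0.105 by limma). Irf1, induced chiefly by interferon gamma, had 198, 233, 166 and 146 on lithium arrays, against 302, 173, 164 and 137 on control arrays. Control array 1 was the highest of all 8, and the groups overlapped across their range. The log2 difference of Irf1 was -0.02 (95% interval -0.66 to 0.62), and whether it differed from the other factors was not tested.

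No antigen processing gene passed, and each of the 3 had overlapping groups. Both counts are near the shares over all genes. Of all genes, 1.18% rose, and for 6.47% every lithium array lay above every control array. Psmb8, a catalytic subunit of the immunoproteasome, had 578, 476, 514 and 437 on lithium arrays, against 446, 392, 305 and 259 on control arrays, and only lithium array 4 fell below the highest control array. Tap1, a subunit of the transporter that carries peptides into the endoplasmic reticulum, had 405, 341, 416 and 459 on lithium arrays, against 389, 314, 221 and 231 on control arrays, and only lithium array 2 fell below control array 1. The log2 difference was 0.54 for Psmb8 (adjusted p = 0.195 by limma) and 0.52 for Tap1 (adjusted p = 0.241). Psmb9, another immunoproteasome subunit, had 134, 118, 199.9 and 202 on lithium arrays, against 216, 194, 139 and 118 on control arrays. In lithium nerves arrays 3 and 4 were the high ones and in control nerves arrays 1 and 2, and the log2 difference over all arrays was -0.03 (95% interval -0.67 to 0.61). The promoter windows of Tap1 and Psmb9 overlap on chromosome 17, on opposite strands.

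Of the 10 enzymes and regulators, 1 rose, against 1.18% of all genes. All 10 had a difference above 0 (median 0.52), against 47.3% of all genes. Every lithium array lay above every control array for 5 of the 10, against 6.47% of all genes. Parp14, an ADP-ribosyltransferase, had 409, 613, 440.5 and 433 on lithium arrays, against 273, 209, 265 and 263 on control arrays. Lithium array 2 stood above the rest and control array 2 below, and the groups did not overlap. Parp14 rose 1.86-fold (log2 difference 0.90 ± 0.15 SE, adjusted p = 0.0394 by limma and 0.127 with the block). Nmi, a partner of STAT proteins, had 364, 379.9, 371 and 319 on lithium arrays, against 291, 252, 211 and 207 on control arrays. The groups did not overlap, with a log2 difference of 0.59 (adjusted p = 0.0698 by limma).

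The protease Usp18, which removes ISG15 from proteins and damps receptor signalling, had a log2 difference of 0.79, and the ISG15 ligase Herc6 had 0.64. The ubiquitin ligase Trim25 had 0.52 and Trim30a 0.33. Parp9 and its partner Dtx3l had 0.46 and 0.51. Ifi35, which binds Nmi, had 0.42, and Lgals3bp, a secreted glycoprotein gene, 0.36. None of these passed, though a second probe set of Ifi35 had 0.77 and did (adjusted p = 0.0376 by limma). In all, 31 further probe sets were annotated to 19 of the 37 genes, of which 26 had a higher mean in lithium, 2 rose and none fell. Past the adjusted p in either direction were 1050 of all 45037 probe sets tested. Of the 21 further probe sets with a mean of at least 50 in 1 group, 20 were higher in lithium.

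The replicate numbers carried a pattern of their own. In control nerves, arrays 1 and 2 exceeded arrays 3 and 4 by a median log2 difference of 0.50 over the 37 genes, and both lay above both for 27 of them, against 27.1% of all genes. In lithium nerves the same median was 0.13, with 11 of the 37, against 20.8% of all genes. Within arrays 1 and 2 the lithium minus control difference had a median of 0.45. It was above 0 for 31 of the 37 genes, against 43.8% of all genes. Within arrays 3 and 4 the median was 0.72, and all 37 were above 0, against 49.3% of all genes. In neither pair alone did any of the 37 pass the test, against 0% of all genes, so that these fits of 2 arrays against 2 called nothing anywhere. Taking arrays by number, lithium was higher than control in all 4 pairs for 26 of the 37 genes, in 3 for 9 and in 2 for Zbp1 and Psmb9. These pairs rest on the replicate number alone, and the same counts were not made over all genes.

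**Figure D3:**
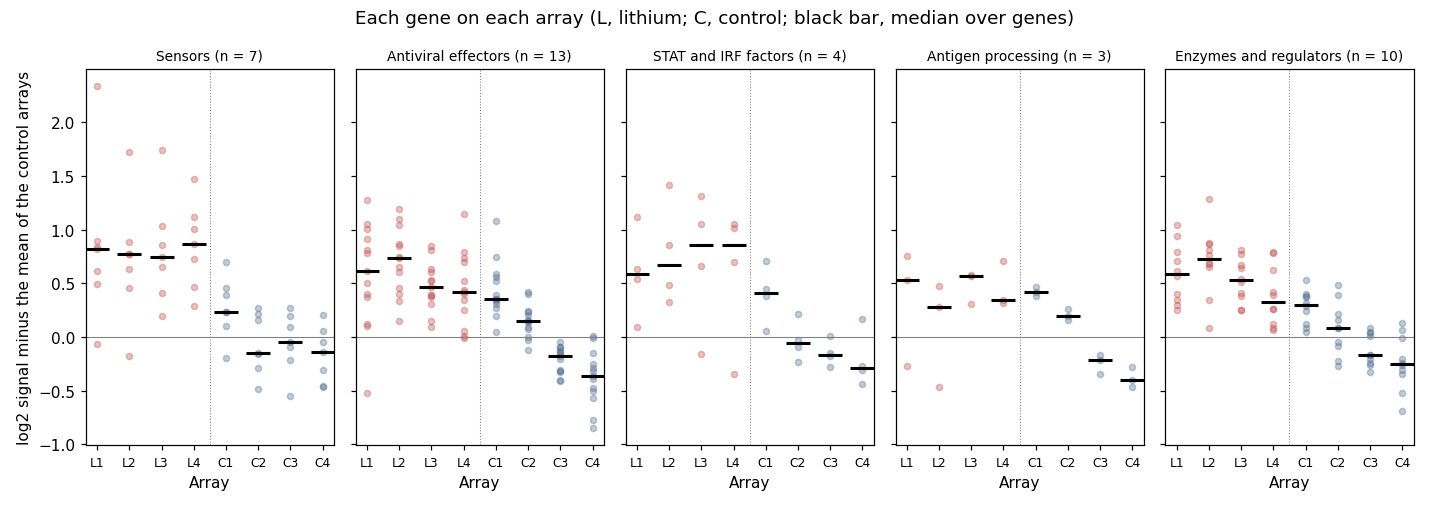
Log2 signal of each interferon response gene on each array minus that gene's mean over the control arrays, by role; L1 to L4 are lithium arrays, C1 to C4 control arrays, and black bars are medians over the genes of the role. Over all 37 genes the medians ran from 0.44 to 0.69 on lithium arrays, against -0.31 to 0.38 on control arrays, with control array 1 the highest of its group.

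A wider list held 180 other genes of the interferon pathway, of which 145 were measured, with a smaller median difference of 0.21. At an adjusted p under 0.05 by limma, 10 of the 145 were higher, against 1.18% of all genes, and 1 lower, against 2.05%. None of the 11 passed with the replicate block. The 10 measured interferon ligand genes did not pass, and for 6 of them no array exceeded the strongest poly-A control of that array, a signal of at most 5.64. None of the 16 receptor and JAK-STAT genes passed, and their median was -0.23. Every lithium array lay below every control array for 6 of the 16, against 8.92% of all genes, and above for 0, against 6.47%. The type I receptor chains Ifnar1 and Ifnar2 had log2 differences of -0.22 and -0.23 (adjusted p = 0.260 and 0.377 by limma). The groups did not overlap for Ifnar1 and did for Ifnar2.

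Of the type II receptor chains, Ifngr1 had 48.3, 44.8, 69.1 and 58.7 on lithium arrays, against 103, 85.2, 89.4 and 96.6 on control arrays. Every lithium array lay below every control array, with a log2 difference of -0.78 that did not pass (adjusted p = 0.0520 by limma). Ifngr2 had -0.17 (adjusted p = 0.668).

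Among 74 other interferon-induced effectors, 8 rose, against 1.18% of all genes, and 1 fell, against 2.05%. Irgm2, an immunity-related GTPase, had 355, 401, 367 and 384 on lithium arrays, against 236, 203, 194 and 198 on control arrays. The groups were tight and far apart, with a log2 difference of 0.86 ± 0.08 SE (adjusted p = 0.0137 by limma), and Irgm2 passed whichever array was left out, although not with the replicate block (adjusted p = 0.0647). Pnpt1, a mitochondrial RNA exonuclease, rose by a log2 difference of 0.65, Ms4a6b, a membrane protein gene of immune cells, by 0.94, and Trim21, a cytosolic antibody receptor, by 0.77. Ifitm1, a relative of Ifitm3, fell: it had 128, 115, 116 and 141 on lithium arrays, against 718, 321, 588 and 662 on control arrays. All lithium arrays lay far below the lowest control array, with a log2 difference of -2.13 (adjusted p = 0.0186 by limma).

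Rnf135, a ubiquitin ligase that activates the RNA sensor RIG-I, was the 1 gene of 21 other sensors and adaptors to pass (log2 difference 0.61, adjusted p = 0.0485 by limma). Nlrc5, the transactivator of class I genes, was the 1 of 19 other antigen processing genes (0.87, adjusted p = 0.0329). It had 329.8, 334, 371 and 391 on lithium arrays, against 211, 221, 204 and 151 on control arrays, without overlap. None of 6 other IRF genes passed. Over all genes, 1.18% rose and 2.05% fell past the test. With 1 of the 8 arrays left out, Ms4a6b passed in 5 of the 8 fits, Ifitm1 in 4, Pnpt1 in 3, Nlrc5 in 1, and Trim21 and Rnf135 in none.

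Markers of cell types that can respond to interferon or bring it in were set beside these values. Of 17 microglia and macrophage markers none rose, against 1.18% of all genes, and 2 fell, Trem2 and Tyrobp, against 2.05%. The 17 had a median log2 difference of -0.26. Their summed signal was 4391 to 5386 on lithium arrays, against 5097 to 6619 on control arrays. The 10 T and NK cell markers summed to 10.6 to 42.1 on lithium arrays, against 18.7 to 56.5 on control arrays, and none passed, while 2 of the 10 did not exceed the strongest poly-A control on any array. The 12 astrocyte markers had a median of -0.16 and the 10 mature oligodendrocyte markers 0.05, and none of them passed. The 8 oligodendrocyte precursor markers had a median of -0.36, with 4 of them above 0, and none passed. Every lithium array lay below every control array for 3 of these 8, against 8.92% of all genes. It lay above for 1, against 6.47%. The 5 photoreceptor markers had a median of 0.38 at low signals, with all 5 above 0, and none passed. The 7 markers of B cells and plasmacytoid dendritic cells had a median of 0.02, and none passed. Neutrophil markers had a median of -1.17, with 3 of 8 past the test and lower, and those of meningeal and perivascular fibroblasts -1.52, with 3 of 15 past it and lower. Endothelial markers had a median of -0.47 (Kdr lower), those of pericytes and smooth muscle -0.75 (Pdgfrb lower) and those of conventional dendritic cells -0.09 (Itgax lower). The 11 markers of neurons and retinal ganglion cells had a median of -0.32, with 5 of them above 0. Of these, Tubb3 and Nefm rose, Nefm at low signals (mean 14.4 in lithium and 5.32 in control nerves). For Thy1 every lithium array lay below every control array, with a log2 difference of -1.19 that did not pass (adjusted p = 0.0925 by limma). With the replicate block only Camp, a neutrophil granule gene (adjusted p = 0.0394 by limma), and Nefm, a neurofilament gene (0.0477), passed among all these markers, and Trem2 and Tyrobp did not (0.0610 and 0.0863). The part of changes in cell types in the values of the interferon response genes was not tested.

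**Figure D4:**
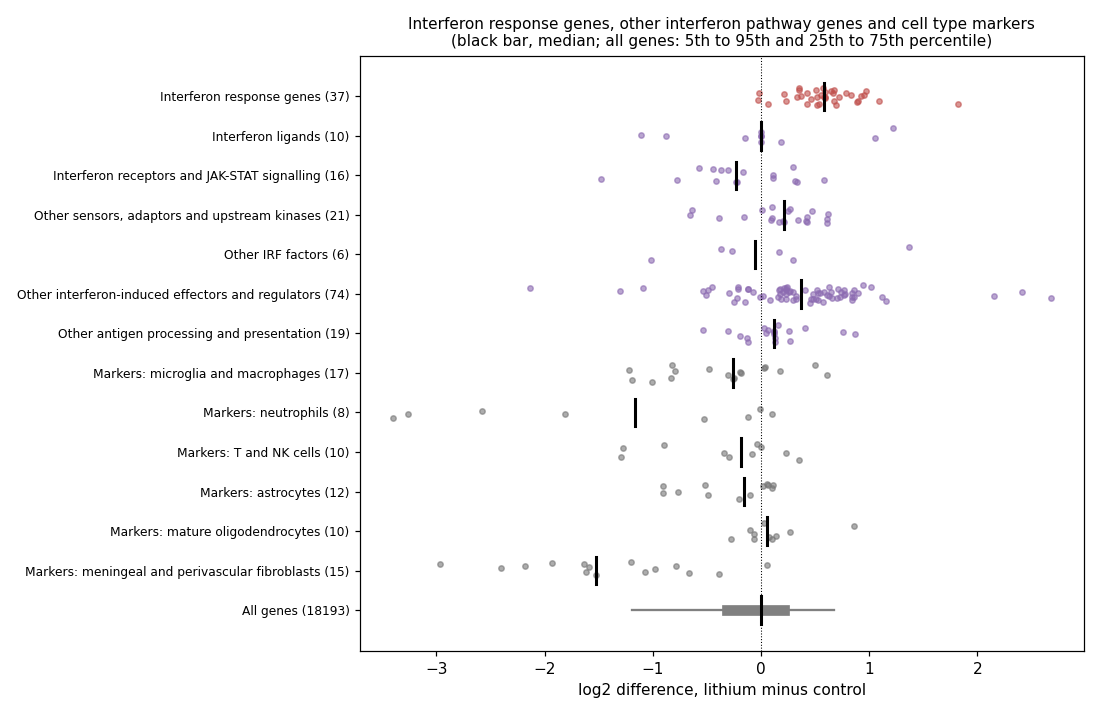
Log2 difference, lithium minus control, of each gene in the interferon response list, in the other interferon pathway lists and in cell type marker lists, with the number of genes in brackets; black bars are medians, and for all genes the lines span percentiles. The median is 0.58 for the interferon response genes, 0.37 for the other interferon-induced effectors, -0.23 for receptors and JAK-STAT genes and -0.26 for microglia and macrophage markers.

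**Figure D5:**
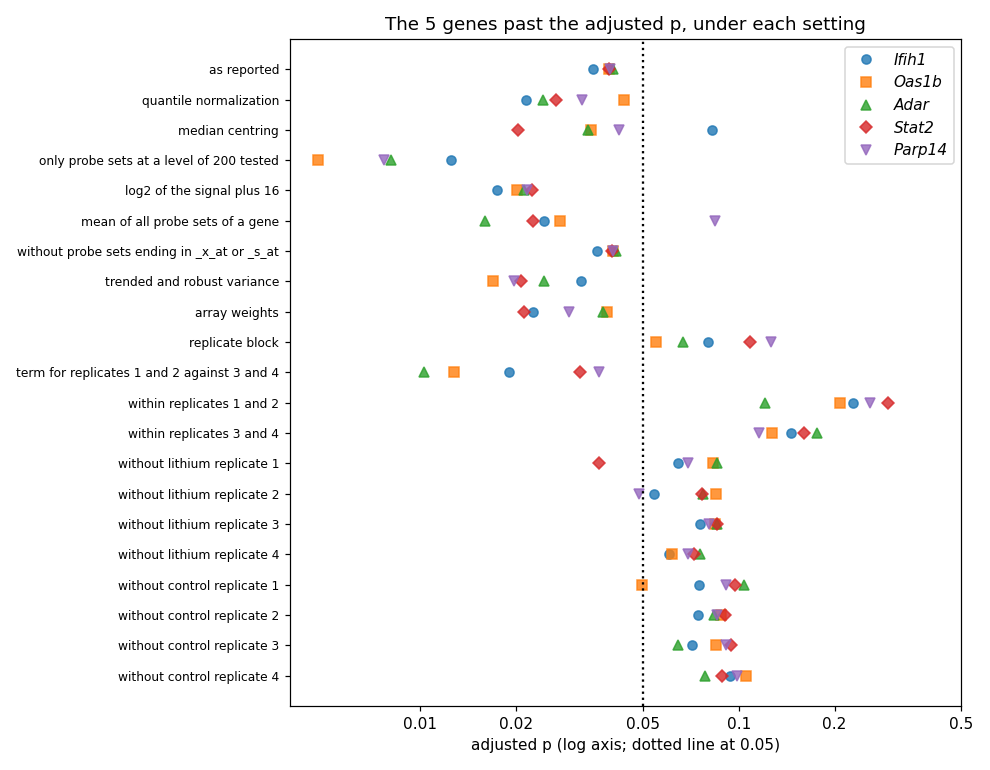
Adjusted p (log axis, dotted line at 0.05) of Ifih1, Oas1b, Adar, Stat2 and Parp14 under each way of processing the arrays; Stat2 has no point at the minimum level of 200, where it was not tested. All 5 lie right of the line with the replicate block and within each pair of arrays, and at most 1 lies left of it when an array is left out.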

How the data were processed

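The authors extracted total RNA, labelled it and deposited MAS5 signal intensities on a linear scale, 1 intensity per probe set and array, each array scaled to a trimmed mean of 100 (2% trimmed at each end, checked on the values). Of 45101 probe sets, 64 controls were left out. Intensities were floored at 1 (14.5% of values), taken to log2, and all 8 arrays were fitted in R 4.3.3 (limma 3.58.1, lmFit then eBayes, no block). Benjamini-Hochberg adjustment of the two-sided p-values ran over 45037 probe sets. A fold change comes from the difference of the groups' mean log2 values, a mean or SD from linear signals. The script was tested on simulated data. Promoter windows were read from a RefSeq table, and both motifs were searched on both strands.

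The 39 genes, the role groups, the other pathway genes and the marker lists were chosen with earlier results of these data known. Values on every array are given for interferon response genes past the adjusted p and for the 2 of lowest p in each role. They are also given for all STAT, IRF and antigen processing genes. Of the other pathway lists, up to 4 rising and 4 falling genes past the adjusted p were named in each. Among these, values on every array are given for Irgm2, Ifitm1 and Nlrc5 only. Ifngr1's arrays, further probe sets, Mbp, Gfap and the markers named as passing were chosen after their values were seen.

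Neither labels nor methods say that a replicate number marks shared animals. After subtracting group means, arrays sharing a number correlated at 0.130 to 0.197 in all 4 pairs, which is the only basis for a pairing. The methods name no block, so the reported fit has none, and the fit with the number as a block is given beside results it changes. Different numbers within arrays 1 and 2 or 3 and 4 correlated at 0.0706 to 0.131. Alternatives were quantile normalization, median centring, a minimum level of 200, adding 16 before log2, averaging all probe sets of each gene, leaving out probe sets ending in _x_at or _s_at, a trended robust variance, array weights, a replicate block, a term for arrays 1 and 2 against 3 and 4, each of these pairs alone, and leaving out each array.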

Additional observations from a re-analysis of the deposited data

Results flagged for a closer look

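In 5 of the 74 groups of 4 arrays (37 genes in 2 groups), the gap between an extreme array and its nearest neighbour took up more of the group's range than Dixon's 95% critical value for 4 samples, and chance gives about 1 such group in 20. Irf7 had 552 on lithium array 2, against 820 to 860 on the other lithium arrays. Gbp2 had 821 on lithium array 2, against 562 to 597 on the others. Herc6 had 206 on lithium array 1, against 292 to 298 on the others. Zbp1 had 420.4 on control array 1, against 288 to 302 on the other control arrays. Parp14 had 209 on control array 2, against 263 to 273 on the others.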

How the results depend on the processing

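The median log2 difference over the 37 genes stayed above 0 in all 20 alternatives, at 0.45 to 0.72. The count of 5 genes past the adjusted p did not stay. It was 6 with quantile normalization (1.57% of all genes higher, against 1.18% as reported), 4 with median centring (without Ifih1; 0.835%), 10 of 30 tested with a minimum level of 200 (Stat2 not tested; 3.74%), 9 with 16 added before log2 (2.01%), 9 after averaging all probe sets of each gene (without Parp14; 1.79%), 6 without _x_at and _s_at probe sets (1.14%), 8 with a trended robust variance (1.35%), 5 with array weights (1.42%) and 13 with a term for arrays 1 and 2 against 3 and 4 (3.00%). With the replicate block it was 0 (0.0495%), and 0 within arrays 1 and 2 and 0 within arrays 3 and 4 (0% each). Leaving out each array gave 0 to 1 (0.187% to 0.605%): Stat2 without lithium array 1 (adjusted p = 0.0364 by limma), Parp14 without lithium array 2 (0.0486), Oas1b without control array 1 (0.0495), and none without lithium array 3 or 4 or control array 2, 3 or 4. Over all probe sets, 8087 had an unadjusted p under 0.05 by limma, 9597 with the block and 6686 to 8205 with 1 array left out. The causes were not tested.

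The count past the methods' fold and level limits, 1, was 2 with the mean of probe sets, 0 with the block and within either pair of arrays, and 0 to 1 with an array left out. The other pathway genes counted 10 higher, with 19 under the term for arrays 1 and 2, 0 with the block and within either pair, and 1 to 4 with an array left out. Their count of 1 lower was 3 with quantile normalization, 2 with median centring, 2 at the minimum level, 4 with 16 added, 2 with the mean of probe sets, 4 with the trended variance, 3 with the term, 0 with the block and within either pair, and 0 to 2 with an array left out.

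The median of the antigen processing genes was -0.0279 with the mean of probe sets, where Tap1 had -0.126 and Samhd1 -0.000941. Within arrays 1 and 2, the difference was -0.233 for Zbp1, -0.126 for Gbp2, -0.00875 for Iigp1 and -0.0116 for Trim30a. Irf1 had 0.00898 with quantile normalization, 0.0687 with median centring and 0.0561 within arrays 3 and 4. Psmb9 had 0.00394 with quantile normalization, 0.0593 with median centring, 0.119 with array weights and 0.649 within arrays 3 and 4. With an array left out, Irf1 ran from -0.16 to 0.22, Psmb9 from -0.18 to 0.12 and Zbp1 from -0.0133 to 0.19. None of the 37 genes was at or under the poly-A controls on all arrays.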
